A study of Mus musculus with 12 samples.

Results

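The unstimulated baseline of mouse cumulus cells was described from the 4 control arrays of a series of 12 arrays, chosen by their title. Cumulus cells are the granulosa-lineage cells that surround the oocyte in the antral follicle and stay coupled to it by gap junctions. They supply the oocyte with metabolites and with cGMP, which helps to hold meiosis, and they answer factors that the oocyte secretes, such as GDF9 and BMP15. Before the ovulatory signal they carry receptors for follicle-stimulating hormone (FSH) and make estradiol with its activating enzyme, whereas the hyaluronan matrix of cumulus expansion is made after the signal.

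All groups came from 129SV females of 21 to 26 days, primed with 5 IU of equine chorionic gonadotropin and used 44 h later. Cumulus-oocyte complexes were collected with 1 µM cilostamide, an inhibitor of phosphodiesterase 3, and cultured whole for 8 h, with 20 complexes in each 50 µl drop. The oocyte was therefore present during treatment and was pipetted off before RNA was taken. Glucose was at 11 mM in all groups. The control group received medium of 293H cells, a human embryonic kidney line, at 0.125% by volume. The GDF9 group (4 arrays) received recombinant GDF9 at 20 ng/ml, and the FSH/EGF group (4 arrays) received the 293H medium with FSH at 50 mIU/ml and epidermal growth factor (EGF) at 10 ng/ml. Levels were ranked on the control arrays alone. The other 8 arrays entered the choice of a gene's probe set and were set beside the control arrays for spread and for single genes. Each array held pooled RNA of 2 of the 8 biological replicates of a group, so every SD below is a spread between 4 such pools.

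The deposited log2 values covered 35399 probe sets and ran from 2.92 to 14.29 over the series. Of these probe sets, 21789 carried 1 gene symbol, and they gave 19938 genes with 1 probe set each. No pair of the 12 arrays held identical values, and the medians of the 4 control arrays lay between 5.47 and 5.53. Probes of different genes bind with different strength, so a rank below is a rank of probe-set signal and not of transcript number. Arrays 2, 3 and 4 correlated with one another at r = 0.990 to 0.992 over all probe sets, whereas array 1 correlated with them at 0.971, 0.980 and 0.972.

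A level for dim probe sets was taken from 1194 olfactory and vomeronasal receptor genes, sensory receptors of the nose. Their control means had a median of 4.18, and their 95th percentile, 5.32, served as the floor. By this rule 12388 of 19938 genes (62.1%) had a control mean above the floor, and 11440 genes were above it on each of the 4 arrays. The 62.1% is the share to set beside each count of class or list members above the floor given below. With the 99th percentile of the same receptor genes (6.03) as the floor, 8895 genes (44.6%) remained above it. The median over all genes was 5.79, and 312 genes had a mean above 10. Uba7 was the last gene inside the floor and Hba-x the first outside it, both at 5.32 after rounding.

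**Figure D1:**
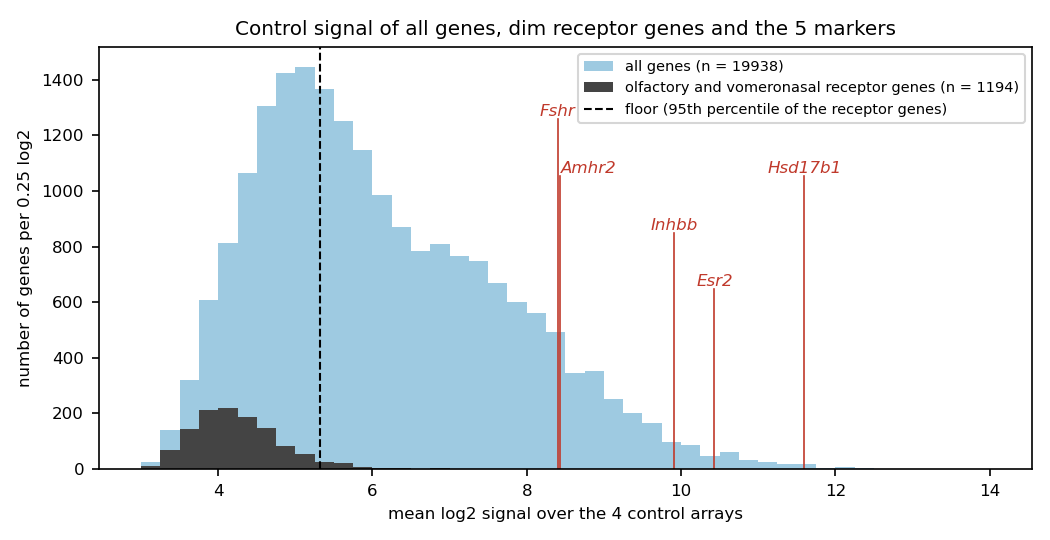
Number of genes per 0.25 log2 step of control mean (n = 4 arrays), for all 19938 genes and for the 1194 olfactory and vomeronasal receptor genes, with the floor at 5.32 as a dashed line. Red lines mark the means of the 5 markers, their heights carry no value, and each lies to the right of the floor.

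The 5 markers of granulosa and cumulus cells all stood above the floor. Hsd17b1, which reduces estrone to estradiol, measured 11.68, 11.55, 11.68 and 11.49 on arrays 1 to 4 (mean 11.60 ± 0.09, SD, n = 4) and ranked 31 of 19938. Inhbb, the beta B subunit of inhibin and activin, measured 9.90, 9.74, 10.09 and 9.89 (9.91 ± 0.14). Array 4 was the lowest for Hsd17b1 and array 3 the highest for Inhbb, and no array stood apart.

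Fshr, the FSH receptor, measured 8.24, 8.49, 8.44 and 8.43 (8.40 ± 0.11) and ranked 1934. Amhr2, the receptor of anti-Mullerian hormone, measured 8.73, 8.37, 8.27 and 8.38 (8.44 ± 0.20). Array 1 was the lowest for Fshr and the highest for Amhr2. Esr2, the estrogen receptor of granulosa cells, measured 9.96, 10.62, 10.59 and 10.57 (10.43 ± 0.32), with array 1 apart below the other 3.

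The whole list of granulosa and cumulus markers was above the floor, 8 of 8 measured genes against 62.1% of all genes, with a median of 9.52 against 5.79. Its other members were Inha, the inhibin alpha subunit (11.70 ± 0.05), Nr5a2, an orphan nuclear receptor (9.13 ± 0.22), and Foxl2, a transcription factor that keeps granulosa identity (9.00 ± 0.26). Cyp19a1 and Lhcgr were not analysed here. In the short list of mural granulosa markers, Emb stood at 6.22 ± 0.20, and Cyp11a1, the side-chain cleavage enzyme that starts steroid synthesis, stood below the floor at 4.57.

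Markers of other cell types were mostly dim. Of 7 leukocyte markers, 2 were above the floor, Cd3e at 5.70 and Cd68 at 5.35, while Ptprc, the pan-leukocyte antigen, was at 4.77. Of 7 endothelial markers only Vwf was above it, at 5.42, with Pecam1 at 4.93 and Cdh5 at 4.98. Of 7 theca and stroma markers 3 passed, Acta2, smooth muscle actin, at 8.71 ± 0.13, Col1a1 at 7.06 ± 0.22 and Pdgfra at 5.59 ± 0.18. Cyp17a1, the androgen-forming enzyme that defines theca, was at 4.60, Dcn at 5.09, Star at 4.99 and Lum at 3.93.

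The surface epithelium list had 6 of 7 members above the floor, with Krt8 at 7.80 ± 0.21 and Krt18 at 6.01 ± 0.14, and the others between 4.99 and 5.58. All 7 members were highest on array 1, as were 39.7% of all genes. Of 2 red blood cell markers, Slc4a1 was at 5.80 and Alas2 at 5.25. In such bulk samples fewer cells of a type and less RNA per cell cannot be told apart.

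**Figure D2:**
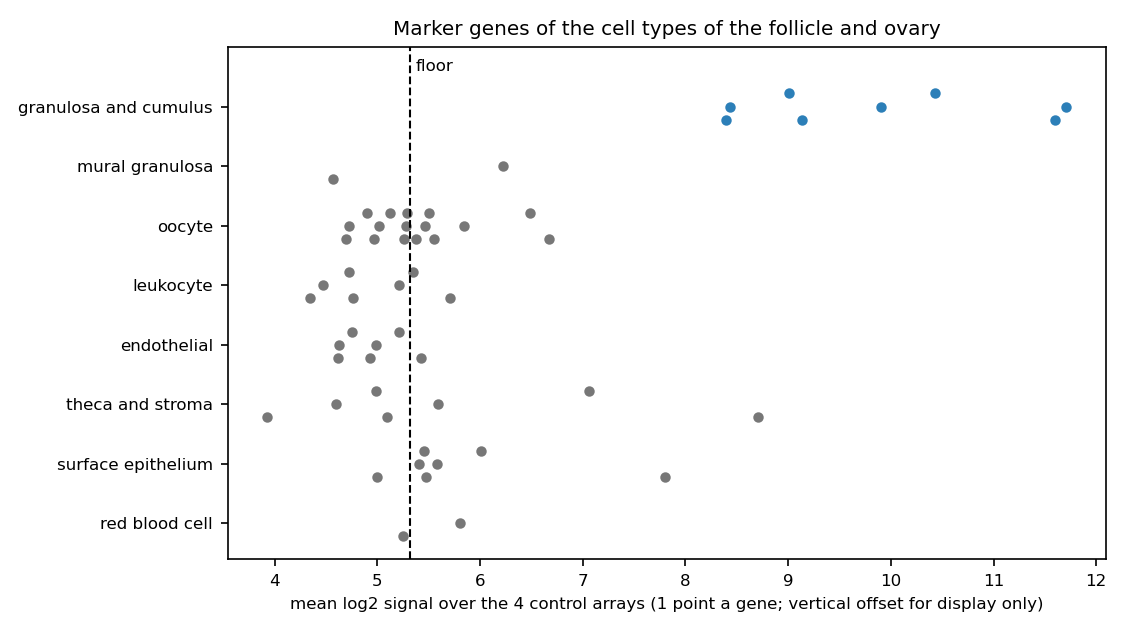
Control mean (log2, n = 4 arrays) of each measured marker gene, by cell type, with the floor at 5.32 as a dashed line. The 8 granulosa and cumulus markers lie between 8.40 and 11.70, and most markers of the other types lie near or below the floor.

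Of 16 oocyte markers, 7 (43.8%) had a mean above the floor, against 62.1% of all genes. They were Zp1, Gdf9, Ooep, Figla, Npm2, Kit and Zar1, and 3 of these 7 had a range (highest minus lowest array) of at least 1. Several of the 9 with a mean below the floor were above it on array 4. Padi6, an enzyme of the oocyte cytoplasmic lattices, measured 4.49, 4.51, 4.46 and 7.05 on arrays 1 to 4. Bmp15 measured 4.63, 4.93, 4.78 and 6.80, and the zona pellucida gene Zp3 measured 5.15, 4.71, 4.77 and 6.53. Array 4 was the highest control array for 15 of 16 oocyte markers, against 25.2% of all genes, and it was also the highest of all 12 arrays for 15 of 16, against 5.94%.

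Gdf9 measured 5.62, 5.53, 5.34 and 6.88, against 5.18 to 5.44 on the GDF9 arrays and 5.30 to 5.88 on the FSH/EGF arrays. The 3 other control arrays were thus within or near the range of the remaining groups, and array 4 was above every one. The oocyte markers on array 4 lay 0.73 above their own mean over the 4 arrays on average, and 9 of 16 had a range of at least 1, against 1.51% of all genes. Figla at 5.46, Nobox at 4.69 and Kit at 5.55 did not have such a range. The part of oocyte RNA in the other high values of array 4 was not tested.

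Receptors, named by symbol patterns, numbered 607 genes, of which 284 (46.8%) were above the floor, against 62.1% of all genes. Bmpr2, the type II receptor used by bone morphogenetic proteins and GDF9, led them with 11.23, 11.75, 11.52 and 11.73 (11.56 ± 0.24, rank 35). Array 1 was the lowest for Bmpr2. Lrp1, an endocytic receptor of the LDL receptor family, followed at 11.11 ± 0.05, and Npr2, the guanylyl cyclase that binds C-type natriuretic peptide and makes cGMP, at 10.75 ± 0.09.

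The next 5 receptors by signal were Ifngr2, a subunit of the interferon gamma receptor (10.65 ± 0.08), Plxnb2, a semaphorin receptor (10.02 ± 0.14), Scarb1, which takes up cholesteryl esters from HDL (10.02 ± 0.14), Robo1, a Slit receptor (9.96 ± 0.28), and Lrp5, a Wnt co-receptor (9.69 ± 0.19). Among growth factor receptors of the EGF, FGF, KIT and PDGF families 10 of 12 were above the floor. Egfr, the EGF receptor, measured 9.62, 9.66, 9.74 and 9.65 and led the list. Erbb2 was at 7.94 ± 0.13, Fgfr1 at 6.87 ± 0.12 and Fgfr2 at 6.46 ± 0.14, while Erbb4 at 5.17 and Met at 5.01 were below the floor.

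The receptors and signal carriers of the TGF-beta family were nearly all above the floor, 19 of 20 with a median of 7.87. Bmpr1b, a type I receptor of bone morphogenetic proteins, was at 9.67 ± 0.17, and its relative Bmpr1a at 8.60 ± 0.25. The common mediator Smad4 stood at 9.53 ± 0.18 and the inhibitory Smad7 at 9.41 ± 0.29. Acvr1c was the 1 member below the floor, at 4.76. Array 4 was highest for 13 of these 20 genes, against 25.2% of all genes and 32.5% of genes above the floor, and none reached a range of 1.

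Secreted factors had 281 of 500 genes (56.2%) above the floor, against 62.1% of all genes. Thbs1, thrombospondin 1, a matrix protein that inhibits angiogenesis, measured 12.89, 12.77, 12.87 and 12.78 (12.83 ± 0.06) and ranked 3 of all genes. Inha followed at 11.74, 11.67, 11.64 and 11.75, and Fst, follistatin, which binds activin, at 11.62, 11.60, 11.41 and 11.59. Array 3 lay apart below the others for Fst, while Inha and Thbs1 showed no array apart.

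After these came Cst3, the protease inhibitor cystatin C (10.74 ± 0.07), Thbs4 (10.69 ± 0.14), the laminin chain Lama1 (10.60 ± 0.01), Grem1, an antagonist of bone morphogenetic proteins (10.53 ± 0.15), and the apolipoprotein Apoa4 (10.53 ± 0.18). Of 22 ligands and binding proteins of the TGF-beta family, 19 were above the floor. Besides those named, Inhba stood at 9.81 ± 0.24 and Bmp6 at 9.06 ± 0.11, whereas Bmp4 at 5.19 and Tgfb2 at 4.93 were below it. Among the basement membrane and matrix genes 13 of 15 were above the floor, with Sparc at 10.35 ± 0.08 and the proteoglycan Vcan at 9.95 ± 0.29, and Dcn below it at 5.09.

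Of 13 ligands that face the oocyte and EGF-like factors, 9 (69.2%) were above the floor, against 62.1% of all genes. Their median was 5.61, near the 5.79 of all genes. Vegfa was at 7.81 ± 0.15, the Notch ligand Jag1 at 7.59 ± 0.33, Tgfa at 7.12 ± 0.06 and Nppc, the precursor of C-type natriuretic peptide, at 6.70 ± 0.26. Kitl, the ligand of Kit, was at 5.75 ± 0.09. Ereg, an EGF-like factor released after the ovulatory signal, was below the floor at 4.62.

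In the plasminogen system and protease group, 12 of 13 were above the floor. Besides Cst3, it held the matrix metalloproteinases Mmp11 (9.74 ± 0.18) and Mmp14 (8.22 ± 0.21) and the proteoglycan-cleaving Adamts5, which measured 7.40, 8.42, 7.57 and 8.50. Arrays 2 and 4 were both higher than arrays 1 and 3 for Adamts5.

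**Figure D3:**
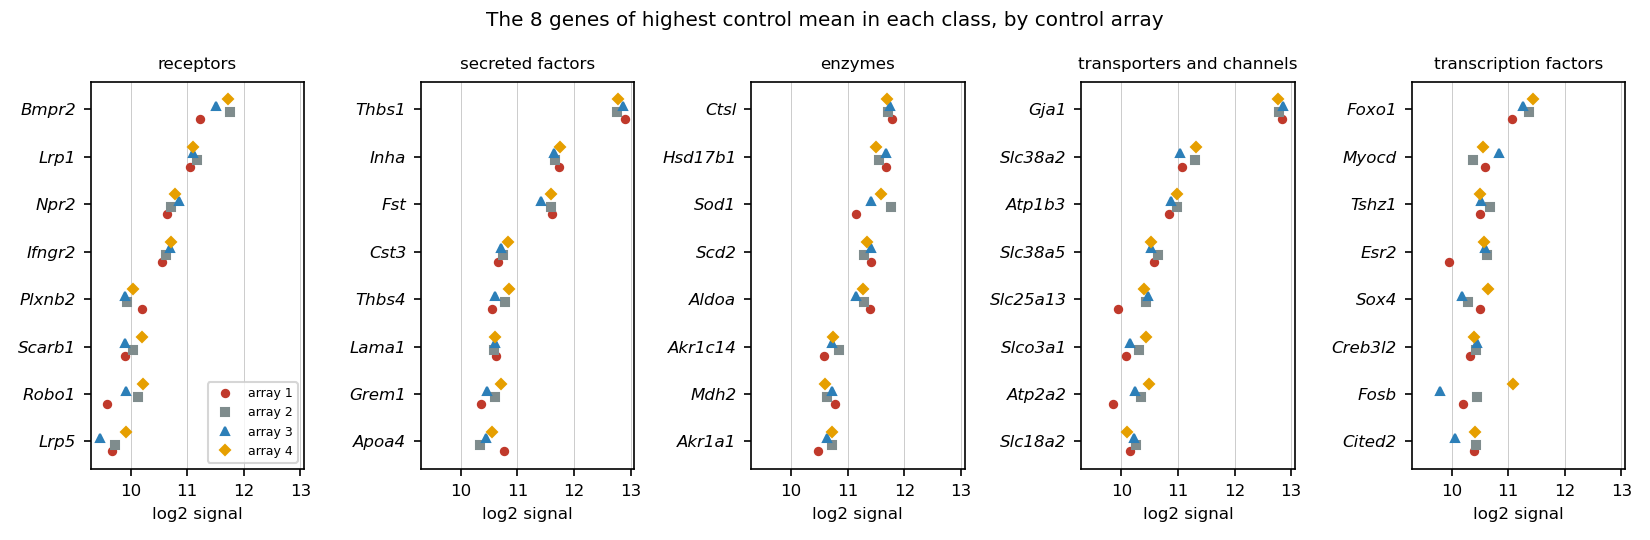
Log2 signal on each of the 4 control arrays for the 8 genes of highest control mean in each of 5 classes, 1 marker shape and colour for each array. Lama1, Gja1 and Ctsl show nearly superposed points, whereas array 1 stands below the others for Esr2 and Slc25a13 and Fosb spreads from 9.80 to 11.08.

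Enzymes had 330 of 591 genes (55.8%) above the floor, against 62.1% of all genes. Ctsl, the lysosomal protease cathepsin L, led with 11.78, 11.72, 11.74 and 11.69 (11.73 ± 0.04), ahead of Hsd17b1. Sod1, a superoxide dismutase, measured 11.15, 11.76, 11.42 and 11.58 (11.48 ± 0.26), with array 1 the lowest and array 2 the highest. The desaturase Scd2 (11.37 ± 0.06), the glycolytic aldolase Aldoa (11.28 ± 0.10), the steroid-reducing Akr1c14 (10.72 ± 0.11), the malate dehydrogenase Mdh2 (10.68 ± 0.08) and the aldehyde reductase Akr1a1 (10.64 ± 0.12) completed the 8.

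Among 14 genes of steroid synthesis and metabolism 8 (57.1%) were above the floor, near the 62.1% of all genes. Hsd17b1, Akr1c14 and Scarb1 had means above 10, and Hsd17b4 stood at 9.53 ± 0.30. Star, which carries cholesterol into mitochondria, measured 4.95, 4.97, 5.08 and 4.94, below the floor on every control array. Cyp17a1 and Akr1c18, the latter a progesterone-inactivating enzyme at 4.46, were below it too. Hsd3b1, which makes progesterone from pregnenolone, measured 8.28, 7.43, 7.81 and 7.16, with array 1 the highest.

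The metabolic genes by which cumulus cells feed the oocyte were all above the floor, 17 of 17 with a median of 8.25. Aldoa, the sterol demethylation enzyme Msmo1 (10.45 ± 0.10), the pyruvate kinase Pkm (10.08 ± 0.06) and the amino acid transporter Slc7a6 (9.90 ± 0.26) led them. Slc38a3, another amino acid transporter, was at 7.06 ± 0.21.

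Transporters and channels had 394 of 676 genes (58.3%) above the floor, against 62.1% of all genes. Gja1, connexin 43, which couples cumulus cells to one another, measured 12.83, 12.79, 12.86 and 12.77 (12.81 ± 0.04) and ranked 4 of all genes. The other connexins were far dimmer by signal. Of 11 measured, 6 (54.5%) were above the floor, against 62.1% of all genes. Gjc1 was at 6.97 ± 0.23, Gjb2 at 5.53 and Gjb1 at 5.44, while Gja4, the connexin of the oocyte side, was at 5.35.

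Below Gja1 came the amino acid transporters Slc38a2 (11.18 ± 0.15) and Slc38a5 (10.56 ± 0.06), with the sodium pump subunit Atp1b3 (10.92 ± 0.07) between them. Slc25a13, the mitochondrial aspartate-glutamate carrier, measured 9.94, 10.43, 10.47 and 10.39, with array 1 apart below the others. Slco3a1, an organic anion transporter (10.25 ± 0.16), Atp2a2, the calcium pump of the endoplasmic reticulum (10.23 ± 0.27), and Slc18a2, the vesicular monoamine transporter (10.18 ± 0.07), completed the 8.

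Transcription factors were the class most often above the floor, 483 of 620 genes (77.9%), although their median was 6.10 against 5.79 for all genes. Foxo1, a forkhead factor that FSH signalling inactivates, measured 11.07, 11.38, 11.26 and 11.43 (11.28 ± 0.16, rank 54). Myocd, a coactivator of serum response factor in smooth muscle, followed with 10.60, 10.38, 10.84 and 10.55. Tshz1 measured 10.50, 10.68, 10.52 and 10.51, with array 2 apart above the others.

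Esr2, Sox4 (10.41 ± 0.21), the membrane-bound Creb3l2 (10.40 ± 0.05), Fosb (10.38 ± 0.54) and the coactivator binding protein Cited2 (10.32 ± 0.18) completed the 8. Of 23 transcription factors known in granulosa cells, 19 were above the floor with a median of 8.44. Gata4 stood at 9.41 ± 0.13, Nr5a1, steroidogenic factor 1, at 9.09 ± 0.12 and Gata6 at 8.96 ± 0.07. Esr1 measured 8.47, 8.49, 8.47 and 8.47, an SD of 0.01. Pgr, the progesterone receptor, was below the floor at 4.67, and so was Nr0b1 at 4.92.

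The gonadotropin and cAMP genes had 15 of 18 members above the floor. Rgs2, which turns off G protein signals, was at 10.50 ± 0.15, the regulatory subunit Prkar2b of protein kinase A at 10.11 ± 0.26, and the phosphodiesterase Pde7b at 9.01 ± 0.30. Pde3a, the phosphodiesterase of oocytes that cilostamide inhibits, was below the floor at 4.71. Of the 10 measured genes around natriuretic peptides and cGMP, 6 (60%) were above the floor, near the 62.1% of all genes. Npr2 led them, followed by Impdh1, an enzyme of guanine nucleotide synthesis, at 7.77 ± 0.11.

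Of 16 IGF and insulin genes 15 were above the floor. Grb14, an adaptor that dampens the insulin receptor, measured 10.44, 10.46, 10.45 and 10.52, and Igf1 measured 9.46, 10.14, 10.11 and 10.30. Array 1 was the lowest for Igf1, as it was for the receptor Igf1r (9.54 ± 0.31). Pappa was below the floor at 5.20.

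Cell cycle genes were above the floor in 20 of 21 cases, with a median of 7.93. Ccnd2, cyclin D2, through which FSH drives granulosa proliferation, measured 11.09, 11.14, 11.23 and 11.06 (11.13 ± 0.07), and its partner kinases Cdk4 and Cdk6 stood at 10.45 ± 0.08 and 9.22 ± 0.24. Markers of cycling cells were above the floor as well, Top2a at 8.83 ± 0.23 and Mki67 at 8.59 ± 0.21. All 15 apoptosis regulators measured were above the floor, with Mcl1 at 9.06 ± 0.21, Apaf1 at 8.29 ± 0.31 and Bcl2 at 5.34 ± 0.07.

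Stress response genes were above the floor in 18 of 18 cases, with the chaperones Hspa8 (12.21 ± 0.07), Hspa5 (10.70 ± 0.15) and Hsp90aa1 (10.30 ± 0.03) the brightest. Of 13 interferon response genes 6 (46.2%) were above the floor, against 62.1% of all genes. Bst2 was at 9.46 ± 0.20 and Ifitm2 at 8.66 ± 0.22, and Ifit1, an interferon-induced RNA-binding protein, was below the floor at 4.29.

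By signal over all genes, the gene ranked first was Baiap2l1, but its 3 probe sets disagreed. The 1 used measured 14.09, 12.98, 13.78 and 13.13, and the other probe sets had means from 4.94 to 9.74. Next outside the ribosomal proteins came Actb (13.08 ± 0.18), Thbs1, Gja1, the small nuclear RNA Rn7sk (12.39 ± 0.45), the RNase MRP RNA Rmrp (12.35 ± 0.30) and Hspa8. The poly(A) binding protein Pabpc1 (12.17 ± 0.09), the mitochondrial oxidase subunit COX2 (12.11 ± 0.17), the RNase P RNA Rpph1 (12.05 ± 0.41) and the elongation factors Eef1a1 (12.04 ± 0.08) and Eef2 (11.97 ± 0.09) made up the 12.

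Ribosomal protein genes were above the floor in 68 of 71 cases, with a median of 10.76, and 43 of them were among the 500 genes of highest mean. Their messages are known for a pyrimidine run at the first base, by which growth signals set their translation. Of 55 ribosomal protein genes with a promoter in the RefSeq table (GRCm38.p6), 10 (18.2%) had a C with at least 4 pyrimidines after it at any annotated start. The C had to be the annotated first base itself. A run beside a start annotated slightly off was not counted, so the share can be too low. The share was 2.98% among genes above the floor, 9.21% in the 100 genes of highest mean and 4.36% in the 500. Without the ribosomal protein genes it was 5.56% in the top 100. Below, such starts are shown for Rps18 (chr17:33955646-33955685, minus strand) and Rpl28 (chr7:4792945-4792984, plus strand), from 20 bases before the start to 20 after it, with the pyrimidine run in capitals.
Rps18: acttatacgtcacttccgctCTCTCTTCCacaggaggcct
Rpl28: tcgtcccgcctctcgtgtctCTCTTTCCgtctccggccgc

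Promoters of bright genes held more CpG dinucleotides. CpG was counted over the 300 bases of a promoter in the table, 250 before and 50 after the start. For a gene with several annotated starts the promoter with the most CpG was taken. The median over genes was 24.5 in the top 100, 22 in genes above the floor and 5 in genes not above it. TATAAA between positions -40 and -20, at any annotated start of a gene, was found in 6.58% of the top 100 with a promoter (5 of 76). The share was 1.84% of genes above the floor and 4.49% of genes not above it. By the floor's rule, most of the 1194 olfactory and vomeronasal receptor genes are among the genes not above it. Their part in the CpG and TATAAA values of that set was not tested.

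The spread between the control arrays was small for most genes. Among genes above the floor the median SD was 0.17, and 270 of 12388 genes (2.18%) had a range of at least 1, a difference of 2-fold or more between arrays. Eloc was the last gene inside that limit and Sec63 the first outside, both at 1.00 after rounding. Array 1 was the farthest from the median of the 4 in 218 of the 270 genes (80.7%), array 4 in 27, array 3 in 14 and array 2 in 11. Without array 1 the count was 49, without array 4 it was 161, and without both, a choice made after seeing the data, it was 15.

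The bright genes of least spread, among class members with a mean above 10, were Lama1, with 10.62, 10.59, 10.60 and 10.61, then Gja1 and Ctsl. Lrp1, Creb3l2 and Inha followed, each with an SD of 0.05. Receptors reached a range of 1 in 1 of 284 genes above the floor, Ghr, the growth hormone receptor, which measured 5.43, 6.35, 5.72 and 6.53. Secreted factors did so in 14 of 281 (4.98%), enzymes in 6 of 330 (1.82%), transporters and channels in 13 of 394 (3.30%) and transcription factors in 17 of 483 (3.52%). The share was 0.352% for receptors, against 2.18% over all genes above the floor.

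The values of array 1 departed in both directions. It was farthest above the others in 65 genes (0.525% of genes above the floor) and farthest below in 153 (1.24%). Of the 65, 11 (16.9%) were small nucleolar RNA genes, which guide modification of ribosomal RNA, against 0.283% of genes above the floor, and 33 (50.8%) coded for protein, against 95.8%. Of the 153, 95.4% coded for protein, close to that share.

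The largest SD of all genes above the floor was that of AY036118, which has only a clone name. It measured 12.56, 9.14, 8.14 and 8.11 (SD 2.10), with array 1 far above the others and array 2 the next.

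Snord16a measured 10.00 on array 1 and 6.21, 6.79 and 6.54 on the others. Snord15a measured 10.56, 6.70, 8.29 and 7.92, and Snord82 measured 8.19, 5.25, 5.74 and 5.62. For each of these 3 genes array 1 was above every other control array. Snord15b, Snord33, Snord35a and Snord47 were also among the 12 genes of largest SD outside the predicted and clone-named genes, and array 1 was the highest for each. Tmem38b, a cation channel of the endoplasmic reticulum, measured 8.02, 5.29, 7.33 and 5.97, and Mroh2a measured 6.74, 5.03, 5.38 and 4.67. Array 1 was the highest for both. Usp17ld, a deubiquitinase gene of a multigene family, measured 5.51, 8.42, 5.14 and 6.65, and array 2 was the highest.

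Of all 51 small nucleolar RNA genes, 33 were highest on array 1, against 39.7% of all genes, and 23 were highest there of all 12 arrays, against 23.2%. Array 2 was the lowest for 27 of the 51, against 20.9% of all genes. Of 26 replication-dependent histone genes, 18 were highest on array 1. H2bc14, an H2B gene, measured 10.09, 8.81, 8.74 and 8.77, and H2ac4 measured 7.52, 5.92, 5.85 and 6.24, both chosen after their values were seen. On array 1 the small nucleolar RNA genes deviated from their own mean by 0.38 on average and the histone genes by 0.30. The 300 microRNA genes deviated there by -0.01, but only 97 of them (32.3%) were above the floor, against 62.1% of all genes. Of these 97, 43 were highest on array 1, against 34.3% of genes above the floor. Another 27 were lowest there, against 41.7%. Small nucleolar RNAs are short, and messages of these histone genes lack a poly(A) tail. A part of RNA length or of the poly(A) tail in these values was not tested.

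Amh, anti-Mullerian hormone of small follicles and cumulus cells, measured 8.36, 6.88, 6.69 and 7.07, so that array 1 was high by more than the spread of the other 3. On the GDF9 and FSH/EGF arrays Amh lay between 6.32 and 7.21. Cebpb, a transcription factor of the ovulatory response, measured 9.58, 8.40, 8.27 and 8.91, and Junb 8.42, 7.09, 7.11 and 7.84. For both of them array 1 was the highest and array 4 the next.

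Genes low on array 1 included Cyp1b1, which hydroxylates estradiol, with 7.87, 8.92, 8.95 and 8.82. The lipid transporters Abca5 (6.43, 7.57, 7.05 and 7.70) and Abcd2 (8.82, 9.90, 9.37 and 9.92) were lowest there too. The genes farthest below on array 1 spanned a median of 39.2 kb in the RefSeq gene table, those farthest above 3.54 kb and all genes above the floor 21.1 kb. A part of gene length in this difference was not tested.

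**Figure D4:**
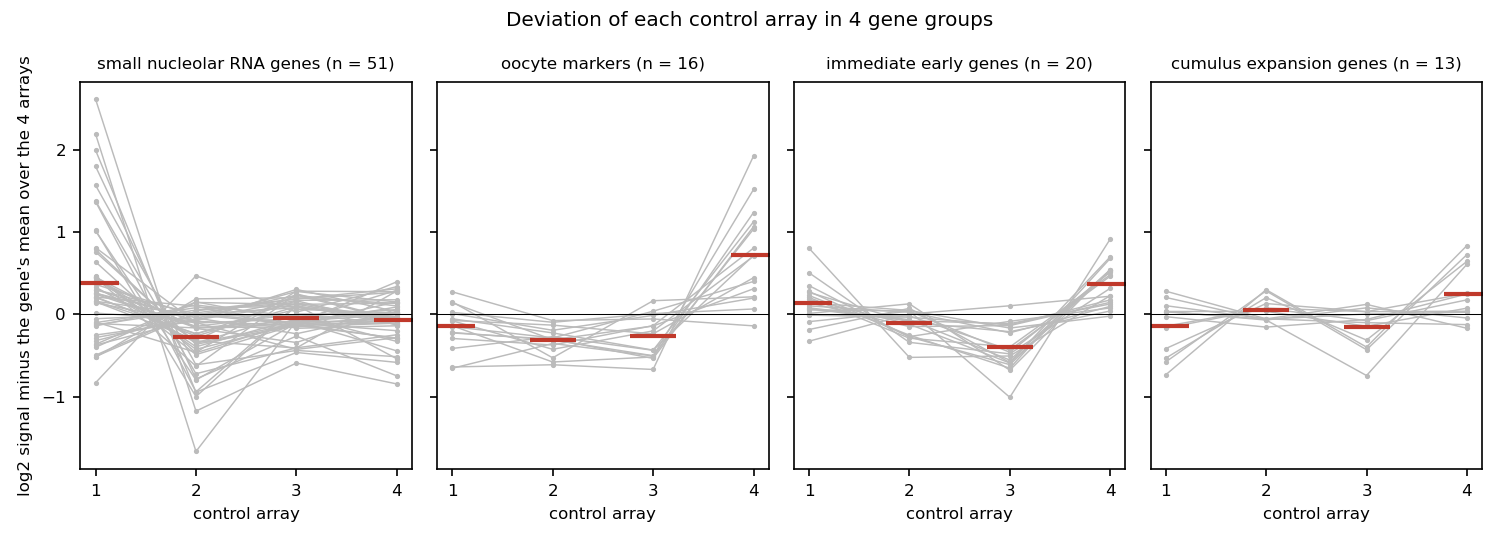
Difference between a gene's log2 signal on each control array and its mean over the 4 arrays, for 51 small nucleolar RNA genes, 16 oocyte markers, 20 immediate early genes and 13 cumulus expansion genes. Grey lines join the values of 1 gene, red bars are means over the genes, and array 1 is high in the first panel and array 4 in the other 3.

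Array 4 was the array farthest above in 27 genes (0.218%), all of its farthest values lying above the median. Elobl measured 5.56, 5.53, 5.01 and 7.83, and Zfp57, a zinc finger protein that keeps genomic imprints in the early embryo, 5.02, 5.16, 4.85 and 6.79. Both were high on array 4 alone. Penk, the enkephalin precursor, measured 5.34, 5.79, 5.56 and 6.77 and was chosen after its values were seen.

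Immediate early genes, which cells transcribe within minutes of a stimulus without new protein synthesis, stood among the most spread. Of 20 measured, 19 were above the floor with a median of 7.51, and 8 of 20 had a range of at least 1, against 1.51% of all genes. Fosb, a subunit of the AP-1 factor, measured 10.20, 10.46, 9.80 and 11.08. Jun, its partner, measured 10.15, 10.28, 9.78 and 10.75, and Fos measured 10.46, 9.61, 9.47 and 10.27.

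For these 3 genes array 3 was the lowest, and array 4 was the highest except for Fos, where array 1 was. Dusp1, a phosphatase that turns off MAP kinases, ran from 6.38 on array 3 to 8.30 on array 4, with 7.44 and 7.42 on arrays 1 and 2. Nr4a1, an orphan nuclear receptor, measured 9.58, 9.09, 8.69 and 10.03. Both were named after their values were seen.

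In the whole list array 3 was the lowest for 16 of 20 genes, against 18.5% of all genes, and array 4 the highest for 14 of 20, against 25.2%. Both held together in 12 of 20 genes, against 5.65% of all. Among genes above the floor array 3 was the lowest in 18.3% and array 4 the highest in 32.5%. On average the list deviated from its own mean by -0.40 on array 3 and by 0.37 on array 4. Myc, which measured 9.24, 9.57, 9.67 and 9.79, was an exception with its lowest value on array 1. The oocyte markers deviated from their own mean by 0.73 on array 4 as well, but by -0.26 on array 3 and -0.32 on array 2. Their part in the values of the immediate early genes was not tested.

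The median SD of the 20 immediate early genes was 0.41 over the control, 0.38 over the GDF9 and 0.31 over the FSH/EGF arrays. The control SD was the larger in 4 of 20 genes against GDF9 and in 10 of 20 against FSH/EGF, and these differences were not tested. Fosb ran from 9.94 to 11.29 over the 4 GDF9 arrays and from 9.11 to 10.50 over the 4 FSH/EGF arrays. Dusp1 ran from 6.64 to 8.84 and from 8.36 to 10.02. Of the 100 genes with the largest SD over the control arrays, 52 were among the 5% of genes with the largest SD over the GDF9 arrays and 36 among the 5% over the FSH/EGF arrays. The median SD of genes above the floor was 0.17 over control, 0.16 over GDF9 and 0.11 over FSH/EGF arrays.

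Promoter sequences of the immediate early genes are shown because their values moved together over the arrays. Promoters were found in the RefSeq table (GRCm38.p6) for 15 of the 20, and the 250 bases before the start were searched on both strands. A gene was counted where any of its annotated promoters held the letters. The full cAMP response element TGACGTCA was found in 1 (6.67%), against 2.95% of genes above the floor with a promoter, and the variant TGACGCA in 2 (13.3%), against 3.20%. A CArG box, the site of serum response factor, was found in 1, against 1.41%, and TATAAA between -40 and -20 in 2, against 1.84%. Among all 32851 promoters in the table, counted singly and not by gene, TGACGTCA was found in 1.55% and TGACGCA in 1.75%. The CArG box was found in 1.47% and TATAAA in that window in 1.99%.
The stretches below hold these letters in capitals, 60 bases each, upstream of the start. Dusp1 (chr17:26508583-26508642, minus strand) holds TGACGTCA, Fosb (chr7:19310071-19310130, minus strand) TGACGCA, and Nr4a1 (chr15:101266766-101266825, plus strand) 2 copies of TGACGCA on the other strand. Egr2 (chr10:67537466-67537525, plus strand) holds the CArG box at 1 of its 5 annotated starts, and Fos (chr12:85473830-85473889, plus strand) holds TATAAA.
Dusp1: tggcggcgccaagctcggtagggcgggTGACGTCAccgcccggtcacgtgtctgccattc
Fosb: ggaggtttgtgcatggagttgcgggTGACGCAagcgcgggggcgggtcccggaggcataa
Nr4a1: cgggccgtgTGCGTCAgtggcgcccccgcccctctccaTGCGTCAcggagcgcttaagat
Egr2: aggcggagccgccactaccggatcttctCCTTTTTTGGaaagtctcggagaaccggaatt
Fos: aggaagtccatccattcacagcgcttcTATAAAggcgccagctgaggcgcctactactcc
The remaining promoters of the list held none of these letters in the windows searched, apart from Ccn1, which held TATAAA.

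Genes of cumulus expansion were above the floor in 8 of 13 cases (61.5%), near the 62.1% of all genes. Grem1 and Vcan were bright, as given above. Has2, which makes hyaluronan, measured 7.15, 8.02, 7.30 and 8.46, and Ptx3, a protein that organises the hyaluronan matrix, 6.70, 7.73, 7.03 and 8.27. Tnfaip6, which links proteins to hyaluronan, measured 6.48, 7.22, 6.70 and 7.66. In all 3 genes arrays 2 and 4 were above arrays 1 and 3, and array 4 was the highest.

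Ptgs2, the inducible prostaglandin synthase, measured 7.30, 7.03, 6.35 and 7.70. These 4 genes had a range of at least 1, 4 of 13 in the list against 1.51% of all genes. They were above the floor on every control array, while Pgr at 4.67, Ereg at 4.62 and the hyaluronan link protein Hapln1 at 4.24 were below it. The oocyte markers were high on array 4 with them, and their part in these values was not tested.

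To compare the spread over all genes between groups, each array's distance was the root mean square log2 difference from the mean of the other 3 arrays of its group. The control arrays lay at 0.313, 0.179, 0.152 and 0.217, with array 1 the farthest of the 12 arrays. Their mean distance was 0.215 ± 0.070 (SD, n = 4), against 0.202 ± 0.040 for the GDF9 arrays and 0.144 ± 0.024 for the FSH/EGF arrays. By an exact two-sided permutation test over 70 splits, the control mean did not differ from the GDF9 mean beyond the spread (p = 0.857, adjusted p = 0.857 over 2 comparisons). Against the FSH/EGF mean the exact p was 0.0571 (adjusted 0.114), which is larger than the smallest p the design allows, 0.029. Each distance was taken from the other 3 arrays of its group, so the distances within a group depend on one another. The p-values count every split but are approximate for that reason. Without control array 1 the control mean was below the GDF9 mean, by -0.0309.

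**Figure D5:**
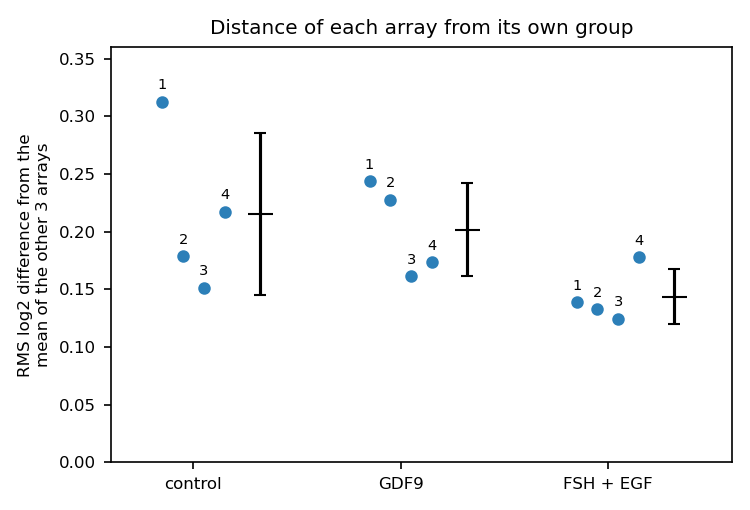
Distance of each array (root mean square log2 difference over all genes from the mean of the other 3 arrays of its group) in the control, GDF9 and FSH/EGF groups, with array numbers as labels and mean ± SD (n = 4) as bars. Control array 1 lies at 0.313, above the 11 other arrays, and the FSH/EGF arrays lie between 0.125 and 0.178.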

How the data were processed

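The data were Affymetrix gene arrays of mouse cumulus cells. Per the submitters' processing notes, GCOS, Partek and RMA were used, with no version, role or genome build given in the sources used here. The deposited values are on a log2 scale and were normalized by the authors before deposit. They were used as given. One probe set was kept for each symbol (highest mean over the 12 arrays), by the platform annotation of 2016, after setting aside 1621 probe sets with several symbols and 11989 not listed in it. Of 19938 symbols, 19919 were in the RefSeq table of GRCm38.p6, and older spellings in lists were updated through its synonyms.

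Classes were read from symbol patterns and 27 lists were written by hand. Both, and the genes described, were chosen with earlier results of these data known. Named genes were the 12 highest control means outside ribosomal proteins, the 8 highest of each class, up to 4 highest of each list, the 5 markers, the 12 largest SDs and the 3 largest SDs of each class, the SDs among genes above the floor. Predicted and clone-named genes were passed over for means and SDs, which left out 3 of the 15 largest SDs, AY036118 among them. Lists of under 10 genes could be given whole, and other list members are named as examples chosen after their values were seen. The floor, range and array distance are defined in the report. Alternatives were probe set choice, renewed quantile normalization, equal medians, other floors, and leaving out each array. The only test between groups was an exact permutation test, of array distances that depend on one another within a group. The rule for range calls was checked on simulated data with less noise than the measured median SD of 0.17. That check cannot show how many of the 270 calls come from spread alone. The number of arrays limits precision. Computation used Python 3.11.15, pandas 2.3.3 and numpy 2.4.6.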

Additional observations from a re-analysis of the deposited data

Results flagged for a closer look

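A value was looked at again where 1 of the 4 control arrays lay farther from its nearest neighbour than 0.83 of the whole range. Chance alone does this in about 1 of 20 groups of values, and 6.79% of all genes above the floor did so. Of 188 named genes and group medians looked at, 16 did, 12 of them on array 1. Some of the 188 were named for a large SD, Snord16a and Zfp57 among them. Their count is therefore not that of a set chosen without regard to spread. Low on array 1 were Cyp1b1 (7.872), Esr2 (9.955), Gjb1 (5.262), Hspd1 (9.373), Pabpc1 (12.04), Pde7b (8.556) and Slc25a13 (9.94). High on array 1 were Snord16a (9.997), Snord33 (8.996), Snord82 (8.194), Tie1 (5.471) and the median of the transcription factors (6.317). On array 3, Cited2 (10.06) and Fst (11.41) were low. On array 2 Tshz1 (10.68) was high, and on array 4 Zfp57 (6.791) was high. Array 1 also had the lowest correlations with the other control arrays, 0.971 to 0.980.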

How the results depend on the processing

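The count of genes above the floor stayed within 1.5 times of 12388 under every alternative run, from 8895 at the 99th percentile of the dim receptor genes to 12461 without array 2. At that stricter floor receptors above it fell to 143, secreted factors to 164 and transporters and channels to 245. The count of genes with a range of at least 1 was 270, and 49 to 243 when 1 array was left out (49 without array 1, 161 without array 4). Under renewed quantile normalization it was 320, with equal array medians 331, without a floor 301 and with the mean over probe sets 239. It was 156 for an SD of at least 0.5, and 15 without arrays 1 and 4, an alternative chosen after seeing the data. Of 288 list and class counts recomputed, 15 moved by over 1.5 times, 13 of them at the 99th percentile floor of 6.03. At that floor the surface epithelium list kept only Krt8, with Krt18 below it at 6.01. No leukocyte marker stayed above it, and of the oocyte markers only Ooep and Zar1 did. The other moves came from leaving out an array. Oocyte markers above the main floor numbered 7, and 11 without array 2. Leukocyte markers numbered 2, and 1 without array 3. Over the other alternatives, 20 of 1085 control means moved by 1 SD or more, and 20 of 162 recomputed SDs moved by over 1.5 times, 14 of them without array 1. The difference in mean array distance was 0.0136 against GDF9 and 0.0714 against FSH/EGF. Leaving out 1 control array gave -0.0309 to 0.0589 against GDF9, negative without array 1 (exact p = 0.314), and 0.0269 to 0.117 against FSH/EGF, where without array 3 the exact p was 0.029. With the replicate number as a block the differences were 0.0136 (exact p = 0.75) and 0.0714 (exact p = 0.125). Same-number deviations correlated at -0.47 to 0.41 with the GDF9 arrays and -0.28 to 0.19 with the FSH/EGF arrays. Not every array correlated best with its own number. These correlations cannot show whether arrays of the same number were paired in the experiment. What the arrays cannot show is a level below the floor, and 4 pools per group limit every SD.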
